A study of Homo sapiens with 4 samples.

Results

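PINK1 and 9 mitophagy receptors, 10 genes of the 61541 in the deposited table, were examined in hepatocellular carcinoma (HCC) cells after knockdown of UBXN1. The genes were taken by name, as the mitochondrial kinase PINK1, the 5 ubiquitin-binding receptors OPTN, SQSTM1, CALCOCO2, NBR1 and TAX1BP1, and the 4 receptors anchored in the outer mitochondrial membrane BNIP3, BNIP3L, FUNDC1 and FKBP8. RNA-seq was performed on MHCC97H, an established human HCC cell line, in 2 libraries of control cells (shCon) and 2 libraries of UBXN1-knockdown cells (shUBXN1). Both groups carried a short hairpin RNA and differed in its target. The sources used here do not name the hairpin used for the sequenced cells, the methods name the control as shRFP where the sample labels have shCon, and nothing says whether libraries of a group came from separate cultures. The p-values therefore measure the spread between these libraries, which may be technical. The comparison of shUBXN1 with shCon addresses how loss of UBXN1 changes genes of mitochondrial homeostasis.

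Mitophagy is the removal of mitochondria by autophagy. On a healthy mitochondrion the kinase PINK1 is imported and degraded. When import fails it stays on the outer membrane, where it phosphorylates ubiquitin and so promotes a ubiquitin coat. Ubiquitin-binding receptors join the ubiquitin coat to ATG8 proteins on the growing autophagosome, and the membrane-anchored receptors bind ATG8 proteins directly without a ubiquitin coat.

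The libraries held 23373700 to 27380508 counts, so that each of the 10 genes had at least 640 counts in every library. Hepatic epithelial genes marked the cells, with levels in CPM (counts relative to the TMM-scaled size of the library, the unit used below unless another is named) of 2329 to 3467 for KRT8, a keratin of simple epithelium, and 46.9 to 61.8 for the hepatic transcription factor HNF4A. ALB, the serum albumin gene, was low at 4.20 to 18.0 CPM, and GPC3, an HCC marker, had 0 counts in all 4 libraries. The summed level of 13 hepatocyte and HCC markers was 4475 and 4646 CPM in shCon and 3506 and 4104 CPM in shUBXN1. For 6 leukocyte markers the sums were 84.0 and 89.7 against 73.9 and 71.5 CPM, nearly all of it CD68, with PTPRC at 4 counts or fewer and CD3E at 0. For 6 fibroblast markers they were 33.3 and 33.8 against 17.3 and 19.8 CPM, most of it LUM. The sums of 4 endothelial markers were 48.4 and 49.9 against 92.6 and 99.5 CPM, all but a few CPM of it PECAM1 and KDR, with CDH5 at 6 counts or fewer. Counts on the mitochondrial genome made up 5.28% and 5.59% of shCon and 7.43% and 8.27% of shUBXN1. The part of these shifts in the results was not tested, and in bulk RNA a change in the share of cells that express a gene cannot be told apart from a change of RNA per cell.

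UBXN1 (ENSG00000162191, chromosome 11, 62676498 to 62679117 of GRCh38), the targeted gene, was at 67.1 and 77.3 CPM in shCon and 16.8 and 18.5 CPM in shUBXN1. It fell by 2.03 on the log2 scale with a standard error (SE) of 0.0963 (adjusted p = 9.98e-10 in edgeR's quasi-likelihood test). The human hairpins of the study are shown because they define the knockdown. Capitals mark the 7 bases that pair with guide positions 2 to 8, the seed, if the guide is the full complement of the printed target.
shUBXN1-1: cccgatgtggacgAGCCTTTa
shUBXN1-2: aggagttagcagcCAGACAAa
shUBXN1-3: gcactgacatctcCTTCCTAa
Each 21-base target was found whole in the canonical UBXN1 transcript and in 0 canonical transcripts of other protein-coding genes. The seed site of shUBXN1-1 occurred in the canonical transcripts of OPTN, CALCOCO2 and BNIP3L, that of shUBXN1-2 in FKBP8, and that of shUBXN1-3 in OPTN and TAX1BP1, where 27.2%, 24.1% and 20.5% of all protein-coding transcripts held the respective site. No seed site of the 3 hairpins lay in the canonical transcript of SQSTM1 or PINK1. The longest run shared between a target and a member was 11 bases, between shUBXN1-2 and FKBP8.

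In the UBXN1-knockdown cells 6 of the 10 genes rose, namely PINK1, OPTN, NBR1, BNIP3, BNIP3L and FUNDC1, and 2 fell, SQSTM1 and FKBP8. A gene was called at a Benjamini-Hochberg adjusted p under 0.05 in edgeR's quasi-likelihood test. All 10 members were among the 16863 genes left by a filter on low counts. Calls were common in these libraries, since 28% of all genes tested were higher, 28.2% were lower and 56.2% were called in either direction by the same rule. Their log2 fold changes had a median of 0.45, against 0.016 for all genes tested. The study's methods state a fold change of 2 with a p under 0.05, and name limma. Applied here to edgeR's unadjusted p, these thresholds called PINK1 and OPTN higher and 0 members lower. They called 11.8% of all genes higher, 6.09% lower and 17.9% in either direction. With limma on log2(TPM + 1) they called 1028 genes higher and 524 lower, against 1997 and 1027 in edgeR. The 2 libraries of each group did not overlap in CPM for 9 of the 10 genes, all but CALCOCO2, as was also the case for 78% of all genes tested.

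**Figure D1:**
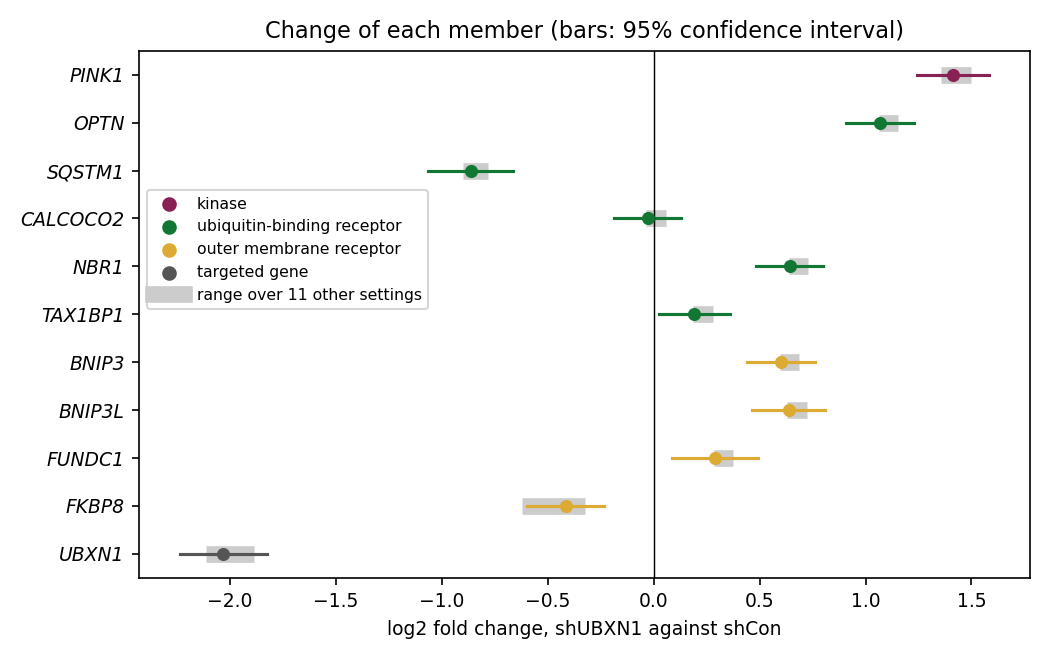
Log2 fold change of PINK1, the 9 receptors and UBXN1 in shUBXN1 against shCon (x axis) from edgeR's quasi-likelihood test, with points for the estimate, thin bars for its 95% confidence interval and gray bands for the range over 11 other ways of processing. PINK1 lies farthest to the right at 1.41, SQSTM1 is the lowest receptor at -0.86, and the interval of CALCOCO2 crosses 0.

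PINK1 (ENSG00000158828, chromosome 1, 20633458 to 20651511) encodes the serine/threonine kinase that senses failing mitochondrial import. It was at 33.0 CPM in each shCon library and at 84.6 and 91.4 CPM in shUBXN1. Both knockdown libraries stood far above both controls, and the difference was many times the spread within either group. The log2 fold change was 1.41 with a 95% confidence interval of 1.24 to 1.58, a 2.67-fold rise (SE 0.0791, adjusted p = 4.13e-09 in edgeR's quasi-likelihood test). It exceeded that of 92.3% of the genes tested. Exons of the antisense gene PINK1-AS cover 39.5% of the exon bases of PINK1, and reads cannot be assigned between them where strand was not used in counting. PINK1-AS was at 4.99 and 5.85 CPM in shCon and 5.26 and 3.70 CPM in shUBXN1, with a log2 fold change of -0.27 that was not called (adjusted p = 0.333, edgeR). The part of antisense reads in the value of PINK1 was not tested.

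OPTN (ENSG00000123240, chromosome 10, 13099449 to 13138308) encodes optineurin, a receptor that binds ubiquitin chains and is activated by the kinase TBK1. It stood at 50.9 and 48.5 CPM in shCon and at 102 and 107 CPM in shUBXN1. Its log2 fold change was 1.07, the largest rise among the receptors (SE 0.0755, adjusted p = 3.88e-08, edgeR). NBR1 (ENSG00000188554, chromosome 17, 43170481 to 43211689), a receptor related to SQSTM1 with its own ubiquitin-binding domain, was at 101 and 95.9 CPM in shCon. In shUBXN1 it reached 149 and 158 CPM, a log2 fold change of 0.64 (SE 0.0740, adjusted p = 4.64e-06, edgeR). Neither gene had overlapping groups.

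SQSTM1 (ENSG00000161011, chromosome 5, 179806398 to 179838078) encodes p62, a receptor that oligomerizes, carries ubiquitinated cargo and binds KEAP1, the inhibitor of the transcription factor NRF2. It was at 2546 and 2678 CPM in shCon and at 1346 and 1524 CPM in shUBXN1. It fell by 0.86 on the log2 scale, to 0.549 of the control level (SE 0.0940, adjusted p = 2.68e-06, edgeR). SQSTM1 was the most abundant member in every library and the one with the largest fall. Exons of the antisense gene MRNIP cover 21% of its exon bases. MRNIP itself was at 47.6 and 48.2 CPM in shCon and 34.6 and 29.1 CPM in shUBXN1 (log2 fold change -0.59, adjusted p = 9.03e-05, edgeR), far below SQSTM1.

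The remaining 2 ubiquitin-binding receptors were not called. CALCOCO2 (ENSG00000136436, chromosome 17, 48831018 to 48866522) encodes NDP52, which binds ubiquitin and galectins and recruits the autophagy initiation complex. It was at 83.9 and 88.5 CPM in shCon and 82.9 and 86.1 CPM in shUBXN1, and the groups overlapped. The log2 fold change was -0.029 with a 95% confidence interval of -0.19 to 0.13 (adjusted p = 0.765, edgeR), and its sign depended on the scaling. TAX1BP1 (ENSG00000106052, chromosome 7, 27739331 to 27844564), a paralog of CALCOCO2 with ubiquitin-binding zinc fingers, was at 221 and 208 CPM in shCon and 232 and 258 CPM in shUBXN1. Its log2 fold change of 0.19 (95% confidence interval 0.023 to 0.36) missed the threshold at an adjusted p of 0.0510 in edgeR. It passed under 9 of 11 other ways of processing, among them DESeq2 with an adjusted p of 0.0375. With 1 library left out it passed without the first shUBXN1 library, at 0.26 (adjusted p = 4.52e-04, edgeR). It was not called without the first shCon library (0.24, adjusted p = 0.101), without the second shCon library (0.13, adjusted p = 0.522) or without the second shUBXN1 library (0.099, adjusted p = 0.186), all in edgeR.

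Of the outer membrane receptors, BNIP3 and BNIP3L are paralogs of the BCL2 family that are induced by hypoxia, and BNIP3L, also called NIX, clears mitochondria from maturing red cells. BNIP3 (ENSG00000176171, chromosome 10, 131967684 to 131981967) was at 45.2 and 45.9 CPM in shCon and 68.3 and 69.8 CPM in shUBXN1. Its log2 fold change was 0.60 (SE 0.0749, adjusted p = 1.00e-05, edgeR). BNIP3L (ENSG00000104765, chromosome 8, 26383054 to 26505636) was at 36.6 and 34.95 CPM in shCon and 54.1 and 57.2 CPM in shUBXN1, with a log2 fold change of 0.64 (SE 0.0801, adjusted p = 1.10e-05, edgeR). The paralogs thus changed by closely similar amounts, and their intervals, 0.44 to 0.76 and 0.47 to 0.81, overlapped over most of their length. Exons of the antisense gene PNMA2 cover 7.95% of the exon bases of BNIP3L, and PNMA2 was at 3.30 and 3.98 CPM in shCon and 20.3 and 19.7 CPM in shUBXN1.

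FUNDC1 (ENSG00000069509, chromosome X, 44523639 to 44542859) encodes a receptor whose binding to ATG8 proteins is controlled by phosphorylation and hypoxia. It was at 26.2 and 27.2 CPM in shCon and 30.7 and 34.6 CPM in shUBXN1, with a log2 fold change of 0.29 (SE 0.0942, adjusted p = 0.0172, edgeR). The call was lost with DESeq2 (adjusted p = 0.0653), without the first shCon library (0.26, adjusted p = 0.105), without the second shCon library (0.30, adjusted p = 0.0860) and without the second shUBXN1 library (0.19, adjusted p = 0.118), the last 3 in edgeR. FKBP8 (ENSG00000105701, chromosome 19, 18531751 to 18544077) encodes a membrane-anchored immunophilin that binds LC3A and BCL2. It went from 76.6 and 86.5 CPM in shCon to 58.0 and 64.2 CPM in shUBXN1 and fell by 0.42 on the log2 scale (SE 0.0845, adjusted p = 7.78e-04, edgeR). It was the only outer membrane receptor that fell.

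Promoter sequence was available from RefSeq (GRCh38.p14) for 7 of the 10 genes, all but PINK1, BNIP3L and FKBP8. The 250 bases before each start were searched on both strands for ACGTG, the core of the hypoxia response element, CACGTG, the E-box bound by TFEB and TFE3, which contains the former on both strands, TGACNNNGC, the core of the antioxidant response element, and GTAAACA, a forkhead site. Over all 35116 promoters in the table these were present in 18.5%, 6.34%, 10.9% and 2.98%. BNIP3, which rose, and CALCOCO2, which was not called, were the members with a match, and the short stretches around them are shown with the matched bases in capitals.
BNIP3, CACGTG, 128 bases before the start: gcacgcgccgCACGTGccacacgcac
CALCOCO2, ACGTG, 56 bases before the start: gaccgttgtgACGTGtgggcggggc
CALCOCO2, TGACNNNGC on the opposite strand, 120 bases before the start: cgctcctgggGCCCGGTCAcctgaacact
CALCOCO2, GTAAACA, 219 bases before the start: aaaaagaaaaGTAAACAgcttcttcca
The BNIP3 stretch lies on the minus strand of chromosome 10 at 131982042 to 131982067. The CALCOCO2 stretches lie on the plus strand of chromosome 17, at 48830964 to 48830988, 48830896 to 48830924 and 48830799 to 48830825. No match to these letters lay in the windows of SQSTM1, OPTN, NBR1, TAX1BP1 or FUNDC1. SQSTM1 had 3 such windows, and OPTN, NBR1 and TAX1BP1 had 2 each. Sequence farther from the starts was not searched, so sites there would have been missed.

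Levels between genes were compared per length, in TPM, in which each count is divided by the length of its gene before all genes of a library are scaled to one common total, computed from the deposited values. In shCon, SQSTM1 was at 1844 ± 27.0 TPM (SD, n = 2) and ranked 64th among all genes tested, and TAX1BP1 followed at 164 ± 10.4 TPM (SD, n = 2). Next came FKBP8 at 92.7 ± 6.01 and CALCOCO2 at 90.2 ± 1.49 TPM (SD, n = 2), whose values overlapped, then BNIP3 at 59.2, FUNDC1 at 50.8, NBR1 at 42.3, OPTN at 30.03, PINK1 at 24.9 and BNIP3L at 20.8 TPM. Apart from FKBP8 and CALCOCO2, the libraries of neighbors in this order did not overlap. In shUBXN1 the order was SQSTM1 at 1054, TAX1BP1 at 194, BNIP3 at 93.6, CALCOCO2 at 92.1, FKBP8 at 72.4, PINK1 at 69.1, NBR1 at 68.8, OPTN at 65.6, FUNDC1 at 64.6 and BNIP3L at 33.6 TPM. There the libraries overlapped between BNIP3 and CALCOCO2, between PINK1 and NBR1, and between OPTN and FUNDC1. PINK1 moved from the ninth to the sixth place, and BNIP3L was lowest in both groups. This order rests on the deposited gene lengths. In CPM, without length, FUNDC1 was lowest in both groups, with means of 26.7 in shCon and 32.65 in shUBXN1. The CPM means of BNIP3L were 35.8 and 55.6.

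**Figure D2:**
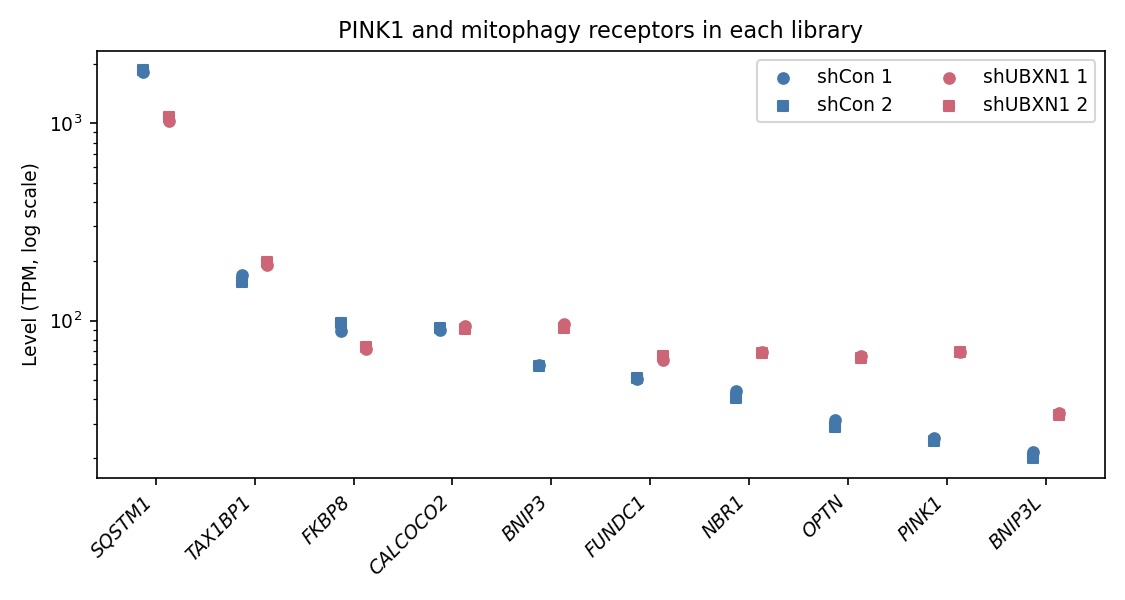
Level of the 10 genes in TPM (y axis, log scale) in each of the 2 shCon (blue) and 2 shUBXN1 (red) libraries, ordered by the mean in shCon. SQSTM1 stands alone above 1000 TPM, and PINK1, OPTN and NBR1 rise from 24.9 to 42.3 TPM in shCon to between 65.6 and 69.1 TPM in shUBXN1.

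The summed level of the 10 genes fell, from 2405 and 2431 TPM in shCon to 1781 and 1834 TPM in shUBXN1. SQSTM1 made up most of it and accounted for 75.9% and 76.6% of the sum in shCon and 57.7% and 58.9% in shUBXN1. Without SQSTM1 the sum went the other way, from 581 and 568 TPM to 754.3 and 754.0 TPM. The other 4 ubiquitin-binding receptors together went from 335 and 317 to 421 and 421 TPM, and the 4 outer membrane receptors from 220 and 227 to 265 and 264 TPM. The share of PINK1 in the sum was 1.05% and 1.01% in shCon and 3.87% and 3.78% in shUBXN1. These sums are descriptions and were not tested. TPM carries no TMM scaling. With limma on log2(TPM + 1) the median log2 fold change over all genes was 0.057, against 0.016 in edgeR with TMM.

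**Figure D3:**
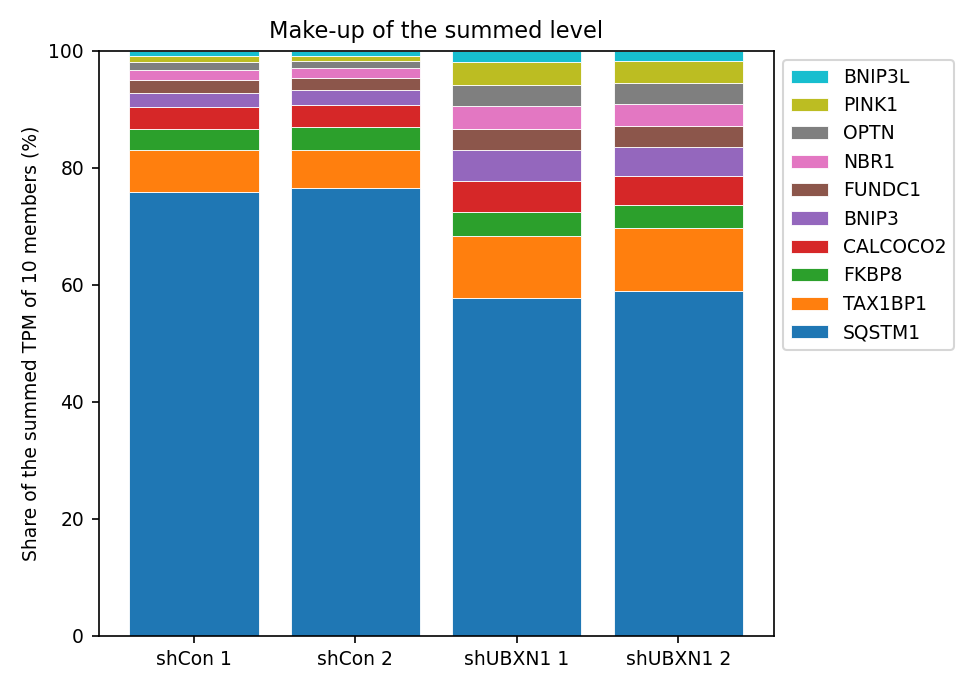
Share of each of the 10 genes in their summed TPM (y axis, percent) in each library. The SQSTM1 part shrinks from 75.9% and 76.6% in the shCon libraries to 57.7% and 58.9% in the shUBXN1 libraries, and the parts of most other genes widen.

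Other genes of the pathway were read from lists written by hand from general knowledge. For comparison with every list, 28% of all genes tested were called higher and 28.2% lower. Of 28 genes of PINK1 import, processing and ubiquitin signaling, 27 were tested, of which 3 rose, 11 fell and 13 were not called, with a median log2 fold change of -0.16 against 0.016 for all genes. The number that rose was 1 without either shCon library, and 5 without the first shUBXN1 library, with total count scaling and with limma on log2(TPM + 1) or log2(CPM + 1). The PINK1 protein enters mitochondria through the TOM complex, and the receptor gene TOMM70 (161.3 and 160.6 CPM in shCon, 99.7 and 108 CPM in shUBXN1) and the pore gene TOMM40 (208 and 224 CPM against 131 and 146 CPM) had the smallest p-values in the list. TOMM70 fell by 0.63 and TOMM40 by 0.65 on the log2 scale (adjusted p = 6.03e-06 and 9.26e-06, edgeR). The deubiquitinase gene USP35 rose by 0.83, whereas USP30, which encodes a deubiquitinase of the outer mitochondrial membrane, was at 0.082 (adjusted p = 0.542, edgeR).

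Among 19 regulators of the membrane receptors and other mitophagy factors, 5 rose, 6 fell and 8 were not called, with a median of -0.070. The balance depended on the scaling, since 8 rose and 5 fell with total count scaling, and 8 rose and 6 fell with limma on log2(CPM + 1). PHB2, an inner membrane receptor for LC3, went from 184 and 197 CPM in shCon to 114 and 112 CPM in shUBXN1, and fell by 0.75 on the log2 scale (adjusted p = 1.03e-06, edgeR). The study, by contrast, reports little effect of the knockdown on PHB2 mRNA by qRT-PCR normalized to GAPDH, also in MHCC97H. By western blotting it reports a decrease of PHB protein but not of PHB2 protein. The reason for the difference in mRNA was not tested. SRC, a kinase that phosphorylates FUNDC1, fell by 0.57 (adjusted p = 1.43e-05, edgeR). FBXL4 and PPTC7, which limit the amount of BNIP3 and BNIP3L protein, moved in opposite directions, with log2 fold changes of -0.60 and 0.44. The ATG8 family, to which all receptors bind, had 5 genes tested of 7 listed, and all 5 rose, with a median of 0.87. The 2 past a fold change of 2 were MAP1LC3A, from 8.03 and 7.88 to 22.6 and 22.6 CPM, and GABARAPL1, from 27.6 and 24.1 to 63.6 and 59.5 CPM. Receptors for other cargo, 9 tested of 10, had 3 higher and 2 lower, with a median of -0.073. The number lower was 4 without the second shUBXN1 library, and 1 without any other library, with total count scaling and with limma on log2(CPM + 1). CALCOCO1, a paralog of CALCOCO2 and TAX1BP1 that acts in removal of the endoplasmic reticulum, rose from 25.5 and 23.8 to 57.4 and 51.0 CPM, a log2 fold change of 1.14 (adjusted p = 1.20e-07, edgeR).

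Of 12 transcription factors and regulators known to act on these genes, 11 were tested, of which 8 rose and 2 fell, with a median of 0.31. Among all genes tested 28% were higher and 28.2% lower, with a median of 0.016. Without the second shCon library 4 rose. The hypoxia factor EPAS1 fell from 200 and 196 to 86.7 and 89.4 CPM, and MITF, a relative of TFEB, rose from 0.488 and 0.341 to 2.91 and 1.41 CPM. FOXO3, which acts on BNIP3 and PINK1, had a log2 fold change of 0.29, HIF1A of 0.18, and NFE2L2, the NRF2 gene, of 0.23 (adjusted p = 4.56e-03, 0.0495 and 0.0290, edgeR).

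Target genes of hypoxia and NRF2 stood beside BNIP3 and SQSTM1, which are themselves targets of these pathways. Of 20 hypoxia targets 19 were tested, with 11 higher, 5 lower and a median of 0.34, and the 4 past a fold change of 2 went both ways. KDM3A rose by 1.07 (SE 0.0851) on the log2 scale, whereas PFKFB3 fell by 1.18 (SE 0.0728). ANKRD37 rose by 2.59 (SE 0.498) from a low level, with 5.2 and 12 counts in shCon. CA9 fell by 2.55 (SE 0.449), but its 2 shUBXN1 libraries differed widely, with 75.9 and 9.64 counts. Of 17 NRF2 targets, 0 rose, 13 fell and 4 were not called, with a median of -0.74. The number that rose was 1 without the first shUBXN1 library, without a filter on low counts, with total count scaling and with limma on log2(TPM + 1) or log2(CPM + 1). Among the 6 past a fold change of 2 were HMOX1, AKR1B10, NQO1, GCLM and OSGIN1. HMOX1, the heme oxygenase gene, fell from 424 and 456 to 50.8 and 56.5 CPM, by 3.04 on the log2 scale (SE 0.0869, adjusted p = 1.20e-11, edgeR). NQO1 fell by 1.09. Whether the fall of SQSTM1 is related to that of these targets was not tested.

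The genes around the members were examined for changes shared by position. Of the 20 nearest protein-coding neighbors on either side, 16 were tested, of which 2 were higher and 8 lower. Among all protein-coding genes tested 29.7% were higher and 32.2% lower. Neighbors of PINK1 moved in opposite directions, CDA from 5.10 and 5.36 to 24.0 and 23.5 CPM and DDOST, which lies on the opposite strand 256 bases past the end of PINK1, from 202 and 198 to 108 and 106 CPM. NBR1 rose by 0.64, whereas both of its neighbors fell. BRCA1, whose start lies 236 bases from that of NBR1, fell by 0.98 (adjusted p = 1.47e-07, edgeR). TMEM106A, 146 bases past the end of NBR1, fell by 0.80 (adjusted p = 6.99e-03, edgeR). Of the nearest genes on either side of SQSTM1, LTC4S was too low to test. MGAT4B, a glycosyltransferase gene whose start lies 554 bases from that of SQSTM1, went from 357 and 356 to 182 and 186 CPM, and fell by 0.95 on the log2 scale (SE 0.0730, adjusted p = 8.63e-08, edgeR). TBC1D9B, which lies 23988 bases past the end of SQSTM1, fell by 1.32 (adjusted p = 4.55e-09, edgeR). After these values were seen, all protein-coding genes that start within 1 Mb were counted, MGAT4B, MRNIP and TBC1D9B included. Exons of MRNIP and MGAT4B, on the opposite strand, overlap 21% and 1.39% of the exon bases of SQSTM1. The part of SQSTM1 reads in the values of these 2 genes was not tested. Of 12 genes around SQSTM1, 8 were lower, 1 was higher and 3 were not called, with a median of -0.55, where 32.2% of all protein-coding genes tested were lower and their median was -0.016. GFPT2 was the gene that rose (0.72, adjusted p = 2.78e-04, edgeR), and RUFY1 (0.13), CANX (0.18) and ZNF354B (-0.74) were not called. Around PINK1, 5 of 16 genes were higher and 5 lower, with a median of 0.0074.

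**Figure D4:**
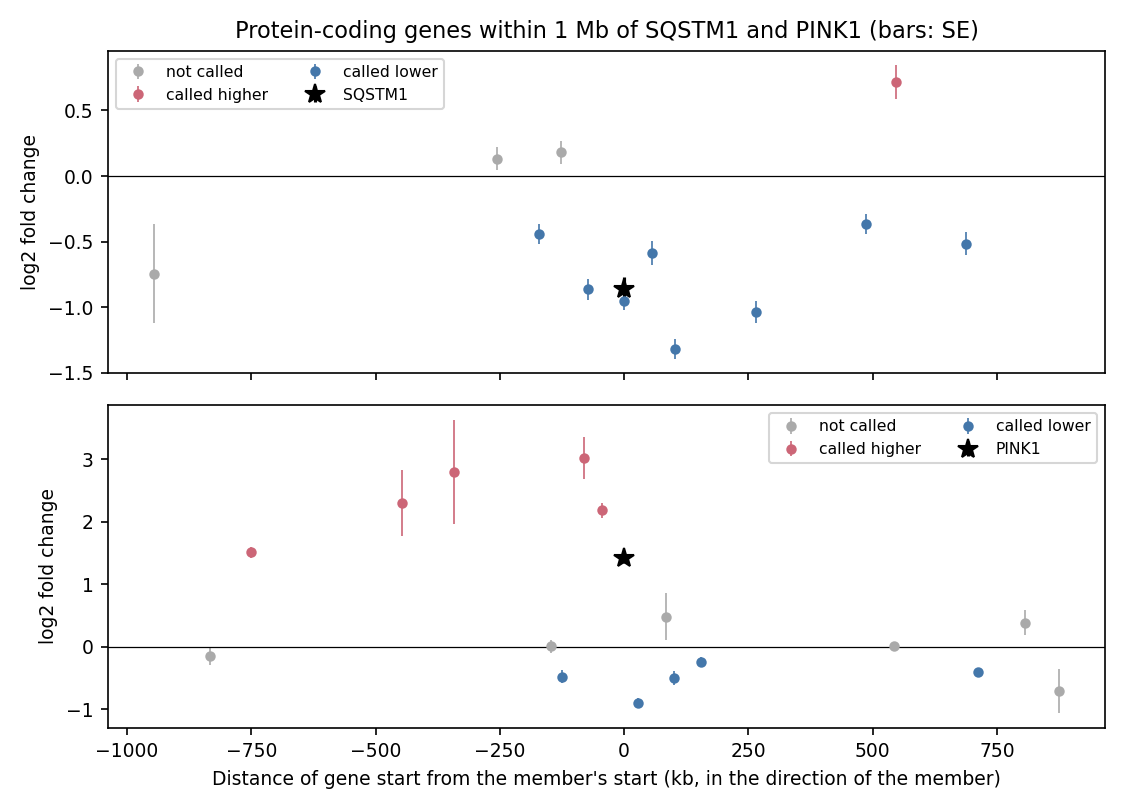
Log2 fold change with its standard error (y axis) of protein-coding genes against the distance of their start from the start of SQSTM1 (top) and PINK1 (bottom) in kb, with the member as a star. Around SQSTM1 the 8 genes called lower lie on both sides, and around PINK1 genes called higher and lower are mixed.

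The genes whose pattern over the 4 libraries was most like that of PINK1 were taken by Euclidean distance between log2 CPM values centered on each gene's mean. Genes were eligible where that mean exceeded 2, which left 11866. They were ADAMTS12 (log2 fold change 1.40), POLR2A (1.44), MEST (1.40), SULF2 (1.42) and the gene ENSG00000261067 (1.42), at distances of 0.0230 to 0.0499. With 4 libraries in 2 groups, this likeness reflects little more than a similar difference between the groups.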

How the data were processed

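RNA of MHCC97H cells was sequenced in 2 shCon and 2 shUBXN1 libraries, grouped by their labels. Per the study's methods, paired-end reads were aligned with HISAT2 to GRCh38. The submitters' processing notes name HISAT2 2.0.4, StringTie 1.3.0 and GRCh37. Of the 61541 deposited gene IDs, 99.7% were in GENCODE release 44, from which the GRCh38 positions and the overlaps of exons were taken. The deposited length of each member was shorter than its exon bases there, so the share of counted bases that overlap is not known. The strand setting and annotation release are not given in the sources used here. The authors deposited expected counts per gene, not normalized (62.4% to 64.6% of values above 0 were exactly whole as deposited, with no tolerance), with gene lengths.

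Counts were rounded, filtered with filterByExpr, scaled by TMM and tested with edgeR 4.0.16 (glmQLFit, glmQLFTest, R 4.3.3), with Benjamini-Hochberg adjustment over 16863 genes. The biological coefficient of variation was 0.0711. With 2 libraries per group the spread was shared across genes. Replicates differed beyond sampling noise (chi-square per degree of freedom 3.65 and 7.77). Limma 3.58.1 on log2(TPM + 1), the test nearest to the methods, limma-voom, DESeq2 1.42.0 and the settings of the closing section were alternatives. Named were the members, UBXN1, list genes past a fold change of 2 or otherwise the 2 smallest p-values, overlapping and neighboring genes, and the 5 genes most like PINK1. Other genes were named after their values were seen. Some list and neighboring genes are not reported here. The members and lists were chosen with earlier results of these data known.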

Additional observations from a re-analysis of the deposited data

How the results depend on the processing

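The calls of PINK1, OPTN, SQSTM1, NBR1, BNIP3, BNIP3L and FKBP8 kept their direction and passed under all 11 other settings with all 4 libraries, from 1.36 to 1.498 for PINK1, -0.90 to -0.78 for SQSTM1 and -0.62 to -0.33 for FKBP8. CALCOCO2, not called in any setting, was at 0.056 with total count scaling, 0.030 and 0.055 with limma on log2(TPM + 1) and log2(CPM + 1), and 0.034 after GC correction, a setting chosen after seeing the data. TAX1BP1 passed with total count scaling (0.28), DESeq2 (0.19), limma-voom (0.19), limma on log2(TPM + 1) (0.25) and log2(CPM + 1) (0.27), without filtering (0.19), with a minimum of 10 counts throughout (0.22) and GC correction (0.28). With the replicate number as a block it passed at 0.19 (adjusted p = 0.0242, edgeR), 7 members were higher and 2 lower, and all genes called were 5000 higher and 5023 lower. Same-numbered libraries share only a number, with a correlation of deviations of 0.039. FUNDC1 was at 0.29 with DESeq2 and lost its call, and the cause was not tested.

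A fold change of 2 with an unadjusted p under 0.05 called 2 members higher and 0 lower, 1997 and 1027 of all genes and 6 and 9 list genes. An adjusted p with a fold change of 1.5 called 5 members higher and 1 lower, 3036 and 2346 of all genes and 13 and 18 list genes. The second rule is stricter by construction, whereas the first asks for a larger fold change but drops the adjustment. Under total count scaling the median over all genes was 0.10 in place of 0.016, with 5324 genes higher and 3969 lower. Without length, in CPM, SQSTM1 made up 79.6% of the sum in shCon and 61.6% in shUBXN1.

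With each library left out in turn, PINK1 ranged from 1.34 to 1.47, OPTN from 1.02 to 1.11, SQSTM1 from -0.97 to -0.78, CALCOCO2 from -0.070 to -0.0045, NBR1 from 0.58 to 0.68, TAX1BP1 from 0.099 to 0.26, BNIP3 from 0.57 to 0.61, BNIP3L from 0.58 to 0.67, FUNDC1 from 0.19 to 0.37, FKBP8 from -0.50 to -0.34 and UBXN1 from -2.13 to -1.94. The lone library of a group was then assumed to vary like the other group. Members called higher numbered 5 to 7 and lower 2, and list genes 25 to 39 and 33 to 52. With 2 libraries per group, small changes such as those of TAX1BP1 and FUNDC1 were near the limit of what could be told.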

Other observations

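PNMA2, a protein-coding gene on the strand opposite BNIP3L, rose by 2.46 on the log2 scale (standard error 0.147, adjusted p = 8.04e-09, edgeR), from 88.0 and 93.5 counts in shCon to 501 and 461 in shUBXN1. It is among the genes that overlap a member by the rule for named genes. The antisense gene ENSG00000267002, which covers 5.51% of the exon bases of NBR1, rose by 1.52 (adjusted p = 7.81e-06, edgeR), and JAZF1, opposite TAX1BP1, rose by 0.65 (adjusted p = 8.01e-03, edgeR). Whether their reads could be told apart from those of the members depends on the strand setting.

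Windows of 1 Mb on each side of the other members, added after the values around SQSTM1 were seen, gave medians of the neighboring protein-coding genes of -0.49 around TAX1BP1 (6 of 15 lower, 3 higher), -0.14 around OPTN (4 of 8 lower, 1 higher), -0.097 around CALCOCO2 (8 of 29 lower, 3 higher), 0.034 around NBR1 (15 of 50 lower, 16 higher) and -0.067 around FKBP8 (19 of 53 lower, 15 higher). Around BNIP3 the median was 0.26 over 7 genes, around BNIP3L 0.21 over 8 genes and around FUNDC1 -0.45 over 3 genes. MCM10, a replication gene next to OPTN, fell from 52.5 and 56.0 to 20.1 and 21.4 CPM. On chromosome 5 as a whole, 206 of 591 protein-coding genes were lower and 146 higher, with a median of -0.097.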
